A study of Mus musculus with 207 samples.

Results

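Txnip encodes thioredoxin-interacting protein, and its row was followed here through every captured beta cell of the study. It was selected on measured values of these same cells, so the age difference and the spread are given as descriptions with no test. The members are 1 gene of 44448 listed genes and its values in all 207 cells. Single cells came from the pancreatic islets of male mice in 2 groups, old (26 months, 69 cells) and young (3 months, 138 cells). The labels name no genetic change or treatment, and give no strain, animal, chip or day. With no animal named, each age counts as 1 sample, and the SDs below are between cells and not between mice. Cells were captured on a Fluidigm C1 microfluidic circuit, and levels are TPM, in which each gene's reads are divided by transcript length and each cell is scaled to the same total.

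Txnip belongs to the alpha-arrestin family. The protein binds reduced thioredoxin through a disulfide and so limits its use as an electron donor, and it also acts as an adaptor in the removal of glucose transporters from the cell surface. In beta cells the gene is known as one of the transcripts most strongly induced by glucose, through the factors ChREBP (Mlxipl) and MondoA (Mlxip) with their partner Mlx, and raised Txnip is known to promote beta cell death in mouse models of diabetes.

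Txnip (gene 56338) lies on chromosome 3 from 96557957 to 96561857 on the plus strand in RefSeq's table for GRCm38.p6, with 8 exons and 2827 spliced bases. The submitters' processing notes name the build GRCm38 (mm10). The element through which glucose acts sits in the proximal promoter as a pair of E-box-like hexamers, so that window is printed for Txnip and, for comparison, for Arrdc4, the other alpha-arrestin known to be induced by glucose through the same factors. Each RefSeq window holds 300 bases, most of them before the gene's start, 5′ to 3′ on the gene's strand. Capitals mark the hexamers CACGTG and CACGAG (reverse complement CTCGTG), searched on both strands. The windows are chr3:96557707-96558006, plus strand, and chr7:68749189-68749488, minus strand.
Txnip promoter: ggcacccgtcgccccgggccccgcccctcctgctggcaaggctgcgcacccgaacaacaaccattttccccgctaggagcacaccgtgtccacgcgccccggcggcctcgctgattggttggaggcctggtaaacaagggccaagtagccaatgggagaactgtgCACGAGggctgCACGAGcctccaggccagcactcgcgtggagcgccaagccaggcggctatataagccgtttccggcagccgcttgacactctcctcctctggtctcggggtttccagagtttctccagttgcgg
Arrdc4 promoter: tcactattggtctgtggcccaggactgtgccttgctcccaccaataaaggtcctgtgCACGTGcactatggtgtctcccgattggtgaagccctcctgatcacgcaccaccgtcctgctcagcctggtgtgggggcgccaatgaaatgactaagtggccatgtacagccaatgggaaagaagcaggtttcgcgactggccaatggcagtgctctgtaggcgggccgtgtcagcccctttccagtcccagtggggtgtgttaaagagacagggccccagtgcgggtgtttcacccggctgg
The Txnip window held CACGAG at -85 and again at -74, with 5 bases between the copies, and a TATATAA run at -27. A CCAAT at -102 and its reverse complement ATTGG at -137 stood upstream of the pair. Of 32817 RefSeq promoter windows of this length, 1 (0.00305%) held 2 copies of CACGAG 5 bases apart, and it was that of Txnip. Any pair of these hexamers, on either strand, at this spacing was found in 4 windows (0.0122%), and at least 1 such hexamer in 4278 (13.0%). CCAAT on either strand was in 12270 windows (37.4%), the Txnip and Arrdc4 windows among them. The Arrdc4 window held CACGTG once, at -193, and no pair. These are matches of letters and not measured binding sites.

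The old cells held less Txnip than the young cells, and in both ages the transcript was spread very unevenly. Txnip ranged between 0 and 333.6 TPM with a median of 1.03 TPM in the 69 old cells, against 0 to 878 TPM with a median of 5.20 TPM in the 138 young cells. The old range lay wholly within the young range. Mean TPM was 20.5 ± 54.0 in old cells and 64.9 ± 146 in young cells (SD between cells, n = 69 and 138), a log2 ratio of -1.62 for old over young on mean TPM with a pseudocount of 1. Without young cells 55-86, numbered by their titles, the ratio was -0.88, and without old cells 159-190 it was -0.99. The upper quartile was 15.2 TPM in old cells and 53.5 TPM in young cells. Among 12155 genes with a mean of at least 1 TPM in either age, the median log2 ratio was -0.10, 26.4% had a mean lower in old cells by a factor of 1.5 or more, and for 16.8% it was higher by that factor. Of these genes, 571 (4.70%) had a lower ratio than Txnip. Ranked by mean TPM, Txnip stood 2208th of all rows in old cells and 800th in young cells.

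At a detection level of 1 TPM, Txnip was present in 36 of 69 old cells (52.2%, exact Clopper-Pearson 95% interval 39.8 to 64.4) and in 89 of 138 young cells (64.5%, 55.9 to 72.4). These intervals cover counting error only. They overlap, and no depth per cell is known from TPM, so an undetected transcript is not an absent one. At 100 TPM or above there were 4 of 69 old cells (5.80%, 1.60 to 14.2) and 25 of 138 young cells (18.1%, 12.1 to 25.6), and these intervals overlap too. Between 10 and 100 TPM the shares lay close, at 24.6% of old cells and 23.9% of young cells, and between 1 and 10 TPM they were 21.7% of old cells and 22.5% of young cells. In the low kind of stretches described below, the 1 to 10 TPM shares were 7.5% of old cells and 25.9% of young cells. In the high kind they were 41.4% of old cells and 20.2% of young cells, the opposite order. Txnip was listed at 0 in 17 old cells (24.6%) and 27 young cells (19.6%).

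**Figure D1:**
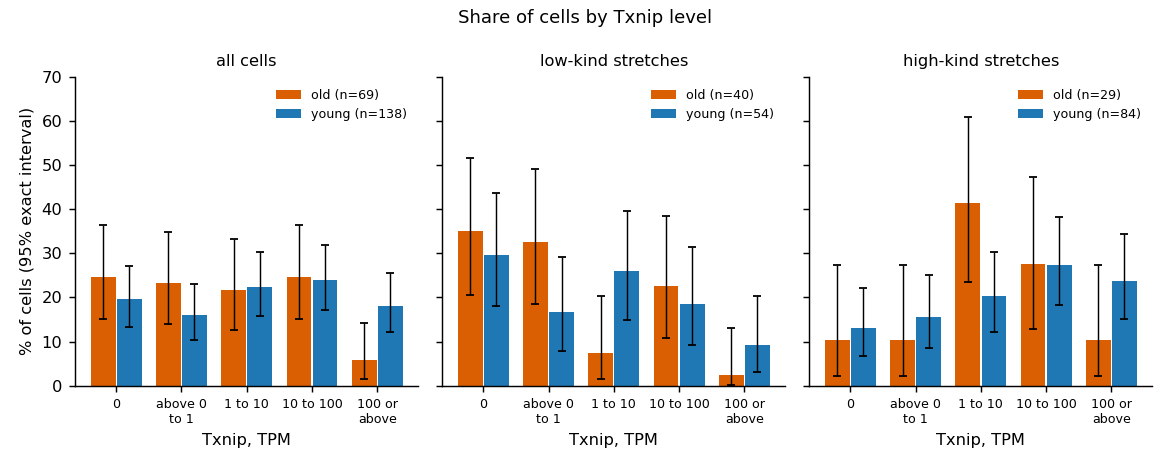
Share of old and young cells (bars, percent) in each class of Txnip TPM, over all cells and in each kind of stretch of cell numbers, with exact 95% intervals for counting error. Over all cells the classes between 1 and 100 TPM have like shares in both ages, while the class of 100 TPM or above holds 5.80% of old cells and 18.1% of young cells. The class of 1 to 10 TPM has the smaller share in old cells in the low kind and the larger share in old cells in the high kind.

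A few cells carried most of the transcript. Cells at 100 TPM or above held 59.3% of the summed Txnip TPM of old cells and 84.0% of that of young cells. The single highest cell held 23.6% of the old total and 9.81% of the young total. Over all 207 cells the mean was 50.1 TPM, the coefficient of variation (SD over mean) was 2.49 and 125 cells (60.4%) reached 1 TPM. The 1375 genes whose mean lay within 2-fold of that mean had a median coefficient of variation of 2.02 and a median share of 64.3%, and 344 of them varied more than Txnip.

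The deposited titles number the cells, and an earlier analysis of these data placed 8 stretches of consecutive numbers 4 in each age. Their limits were set from detected genes, mitochondrial RNA and abundant nuclear noncoding RNA, and the labels do not name them. Stretches of the low kind (old cells 159-190 and 200-207, young cells 1-54) had a mean of 0.264% of TPM in mitochondrial rRNA and tRNA in old cells and 0.373% in young cells. The high kind (old cells 139-158 and 191-199, young cells 55-138) had means of 2.24% in old cells and 1.28% in young cells.

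Stretch means of Txnip spanned 7.06 to 43.8 TPM among old cells and 14.5 to 152 TPM among young cells. Among old cells, the mean was 36.8 ± 64.2 TPM in cells 139-158 (SD, n = 20 cells), with a median of 4.56 TPM, and 16 of the 20 cells reached 1 TPM. Old cells 159-190 averaged 7.06 ± 13.5 TPM (SD, n = 32 cells), with a median of 0.378 TPM and 11 of 32 cells at 1 TPM. In old cells 191-199 the mean was 11.2 ± 15.6 TPM (SD, n = 9 cells) and 7 of 9 cells reached 1 TPM. The remaining stretch, old cells 200-207, had the highest mean of the 4 only through cell 201. At 333.6 TPM that cell held 95.1% of the stretch's Txnip, and the mean was 43.8 TPM over all 8 cells and 2.44 TPM without it.

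Among young cells, cells 55-86 stood apart with a mean of 152 ± 228 TPM (SD, n = 32 cells), a median of 41.5 TPM and 28 of 32 cells at 1 TPM or above. They included 12 of the 25 young cells at 100 TPM or above, and the 2 highest cells of the study, at 878 and 826 TPM. Young cells 1-39 averaged 35.1 ± 78.0 TPM with a median of 1.22 TPM (SD, n = 39 cells). Young cells 40-54 averaged 14.5 ± 38.6 TPM (SD, n = 15 cells), and 4.70 TPM without their highest cell. In young cells 87-138 the mean was 48.1 ± 119 TPM with a median of 5.16 TPM (SD, n = 52 cells). The stretch means of the 2 ages overlap, since the mean of old cells 139-158 lies above those of young cells 1-39 and 40-54. Young cells 55-86, the stretch highest in Txnip, had a mean summed TPM of 3034 over the immediate early genes, against 820 to 1212 in the other young stretches, and 4202 TPM of the nuclear RNA Malat1. Among old cells these measures did not keep the order of the Txnip means. Cells 139-158 had the lowest mean immediate early sum (323 TPM), and cells 200-207 had 680 TPM of Malat1, against 3212 TPM in cells 191-199. For Malat1 this contrast rested on cell 201, without which the Txnip mean of cells 200-207 was 2.44 TPM, against 11.2 TPM in cells 191-199. Median Txnip was 4.56 and 4.81 TPM in old cells 139-158 and 191-199, where Malat1 averaged 2385 and 3212 TPM. It was 0.378 and 0.181 TPM in old cells 159-190 and 200-207, where Malat1 averaged 216 and 680 TPM. By median the immediate early sum was lowest in cells 191-199, at 123 TPM against 175 TPM in cells 139-158. The part of these measures in the level of Txnip was not tested.

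**Figure D2:**
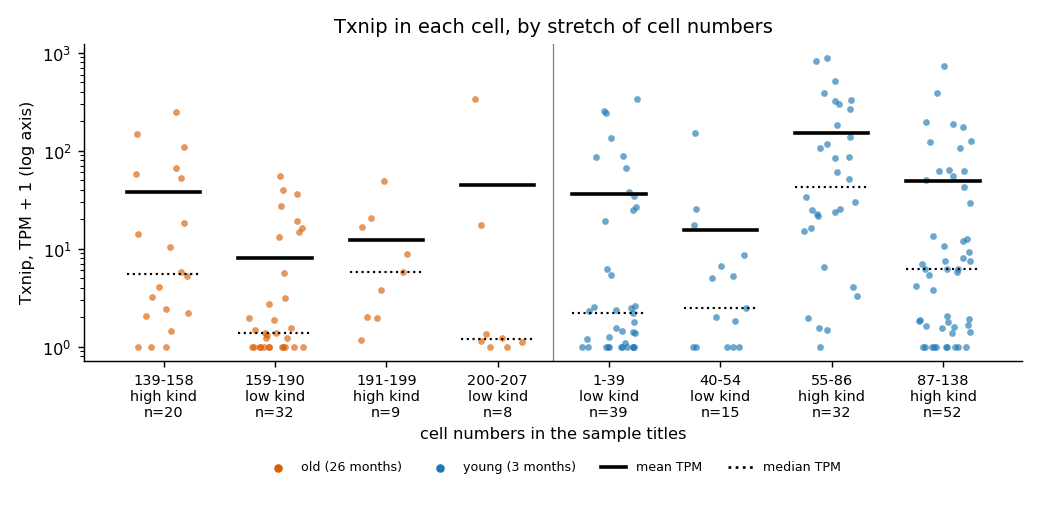
Txnip as TPM + 1 (log axis) in each of the 207 cells (points), by stretch of cell numbers, old stretches left of young ones, with the mean (solid) and median (dotted). Every stretch but old cells 191-199 has cells at 0, and young cells 55-86 have the highest median, 41.5 TPM.

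Within the kinds, Txnip was lower on average in old cells in both. The mean in the low kind was 14.4 ± 53.2 TPM in 40 old cells and 29.4 ± 69.6 TPM in 54 young cells, a log2 ratio of -0.98. Of the old total there, 57.9% came from cell 201, and without it the ratio was -2.07. In the high kind the mean was 28.8 ± 54.9 TPM in 29 old cells and 87.7 ± 175 TPM in 84 young cells, a log2 ratio of -1.57, which was -0.72 without young cells 55-86. The share of cells at 1 TPM did not keep one direction. Old cells of the low kind had a share of 32.5% against 53.7% in young cells, whereas old cells of the high kind had 79.3% against 71.4% in young cells.

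Cells with more detected genes tended to hold more Txnip. Spearman's rho between Txnip and the number of genes detected was 0.30 over 207 cells and 0.28 with ranks taken within stretches. The cells of an age share their source and each cell's values share 1 scaling, so these are descriptions. In cells with under 3000 detected genes Txnip averaged 3.32 TPM in 14 old cells and 13.7 TPM in 16 young cells. In the range of 3000 to under 4500 genes the means were 15.5 TPM in 34 old cells and 72.7 TPM in 68 young cells. With 4500 genes or more they were 40.1 TPM in 21 old cells and 70.3 TPM in 54 young cells, and in this range the young mean was 38.7 TPM without cells 55-86, a log2 ratio of 0.047. The mean was thus lower in old cells in each range over all cells, but not in the highest range once cells 55-86 were left out. With those cells kept, the highest range had a median of 13.6 TPM in old cells and 8.87 TPM in young cells. Its shares at 1 TPM were 76.2% in old cells and 70.4% in young cells. In the lower ranges the old medians were the lower ones (0.257 against 1.51 TPM, and 0.739 against 2.68 TPM). Txnip showed little relation with the summed insulin TPM (rho 0.02) or the mitochondrial coding TPM (rho -0.06).

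The gene most like Txnip across cells was Gm15441, a long noncoding RNA transcribed from the other strand of the same locus, and it was singled out after its values were seen. Spearman's rho was 0.75 over 207 cells, 0.68 with ranks within stretches, 0.72 among old cells and 0.75 among young cells. Pearson's r of log2 values (TPM with a pseudocount of 1) was lower, at 0.49. Gm15441 (gene 100038464) spans chromosome 3 from 96555768 to 96566801 on the minus strand, so it contains the whole of Txnip and its promoter window. Its exons cover 441 bases of Txnip exon 1 (96557957 to 96558397) and 165 bases of Txnip exon 5 (96559678 to 96559842), together 21.4% of the spliced Txnip length and 36.7% of that of Gm15441. The exon 5 stretch is coding sequence of Txnip and is printed to show what both transcripts contain, on the plus strand, from the GENCODE M21 transcripts at chr3:96559678-96559842. Capitals are not used in it, as the whole run is shared.
Txnip exon 5 stretch: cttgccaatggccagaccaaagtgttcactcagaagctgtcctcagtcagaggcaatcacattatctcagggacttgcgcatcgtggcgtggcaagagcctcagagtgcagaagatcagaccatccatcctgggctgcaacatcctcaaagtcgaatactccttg
Whether the libraries or the counting kept strand is not given in the sources used here, and without strand a read from these stretches cannot be assigned to one of the genes. The part of such reads in the correlation was not tested.

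Gm15441 averaged 2.36 ± 9.01 TPM in old cells and 2.98 ± 15.5 TPM in young cells (SD, n = 69 and 138 cells), a log2 ratio of -0.25. It reached 1 TPM in 13 old cells (18.8%) and 44 young cells (31.9%). Both means rest on few cells, since 41.3% of the old total came from cell 158 (67.2 TPM) and 42.3% of the young total from cell 40 (174 TPM). Without those cells the means were 1.40 TPM in old cells and 1.73 TPM in young cells, while the kinds of stretches had opposite log2 ratios (-1.36 low, 0.65 high). Its level was nearly always the lower of the pair. Of 127 cells with at least 1 TPM of either gene, 8 had more Gm15441 than Txnip. Of the 57 cells with Gm15441 at 1 TPM or above, 55 also had Txnip at that level, and none of the 44 cells with Txnip listed at 0 did so. In cells with Txnip at 1 TPM or above, Gm15441 made up a median of 4.06% of the 2 genes' sum (quartiles 0.616% and 11.6%). Adding the genes gave an age ratio of -1.53 on the log2 scale, close to that of Txnip alone.

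**Figure D3:**
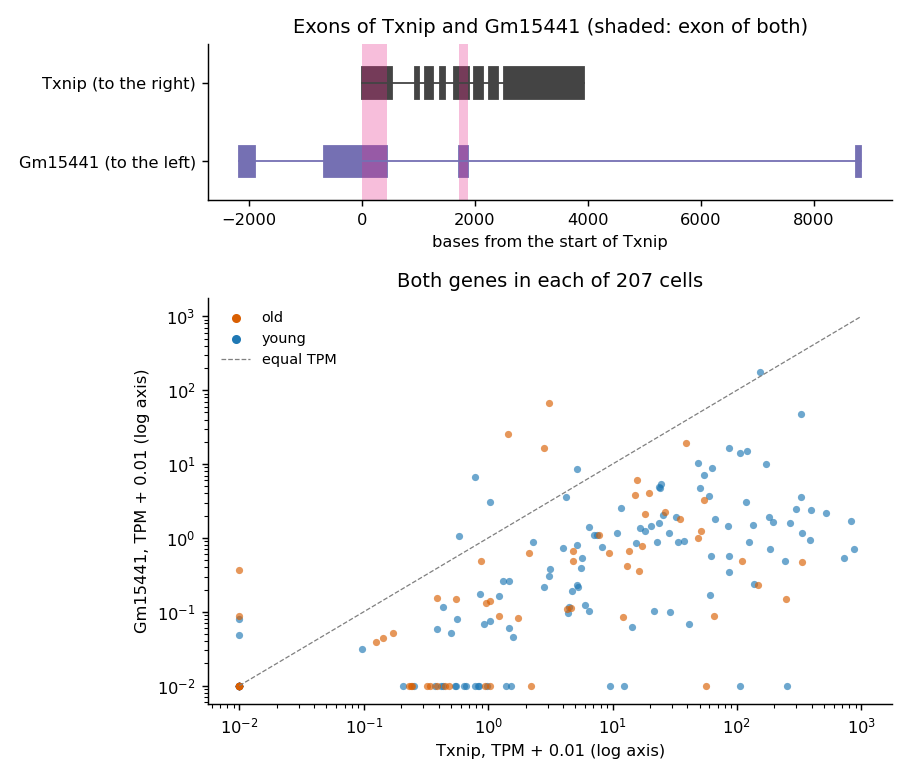
Top, exons of Txnip and Gm15441 in bases from the start of Txnip, with shared exon stretches shaded. Bottom, Gm15441 against Txnip in each old and young cell as TPM + 0.01 (log axes), with a dashed line of equal TPM. Most cells with Gm15441 lie on the side where Txnip is higher, and cell 40 is the highest in Gm15441 with 174 TPM.

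Of the nearest protein-coding neighbours, 1 of 4 was detected at an appreciable level. Polr3gl, a subunit of RNA polymerase III 16.0 kb away, averaged 6.84 TPM in old cells and 4.58 TPM in young cells, with a rho of 0.06 to Txnip. A single old cell held 67.9% of the old Polr3gl total, and without the highest cell of each age the means were 2.23 TPM in old cells and 3.90 TPM in young cells, the opposite order. Ankrd34a, 34.1 kb away, was above 0 in 1 old cell and averaged 0.00 TPM in young cells. Hjv, the hemojuvelin gene 28.7 kb away, and BC107364, 104 kb away, were listed at 0 in all cells.

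Apart from Gm15441, likeness to Txnip was weak. Of 5972 other genes at 1 TPM or above in at least 25% of cells, 387 (6.48%) had a rho of 0.2 or above and 14 (0.234%) a rho of -0.2 or below. With ranks taken within stretches these counts were 120 (2.01%) and 0 (0%). The median rho over all these genes was 0.07, and 75.7% lay above 0, so a small positive rho is the common case in these cells. The highest named gene was Btg1, an antiproliferative factor, with a rho of 0.41 (0.22 within stretches); it averaged 98.4 TPM in old cells and 156 TPM in young cells, with log2 ratios of 0.49 (low kind) and -0.40 (high kind). Peg3, an imprinted zinc-finger gene, followed with 0.38 (0.23 within stretches), and averaged 52.6 TPM in old cells and 81.0 TPM in young cells.

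Polr2i, a subunit of RNA polymerase II, and Dhx9, an RNA helicase, were the only genes among the 10 highest both over all cells and within stretches. Polr2i had a rho of 0.35 over all cells and 0.28 within stretches, with means of 13.2 TPM in old cells and 39.9 TPM in young cells. Dhx9 had 0.34 over all cells and 0.28 within stretches, with means of 2.31 TPM in old cells and 8.08 TPM in young cells. Malat1 (0.35) and the AP-1 subunit Jun (0.33) stood in the first 10 over all cells but at 0.09 and 0.10 within stretches. The other 4 of the first 10 were Bclaf1, Tob1, Upf1 and St13, with a rho of 0.32 to 0.34. Within stretches the highest were Insig2, which retains the sterol sensor complex in the endoplasmic reticulum, H3f3a, which encodes histone H3.3, and Uckl1, each with 0.29. H3f3a has near-identical copies, so its level is uncertain.

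At the other end of the scale stood Gapdh (rho -0.26, and -0.16 within stretches), the ribosomal protein genes Rpsa (-0.25) and Rpl13 (-0.21), the lysosomal saposin precursor Psap (-0.24) and ND4 (-0.23), a subunit of complex I encoded in the mitochondrial genome. Gapdh, Rpsa and Rpl13 have many near-identical pseudogenes, so their levels are uncertain, and Gapdh averaged only 10.9 TPM in old cells and 8.06 TPM in young cells.

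**Figure D4:**
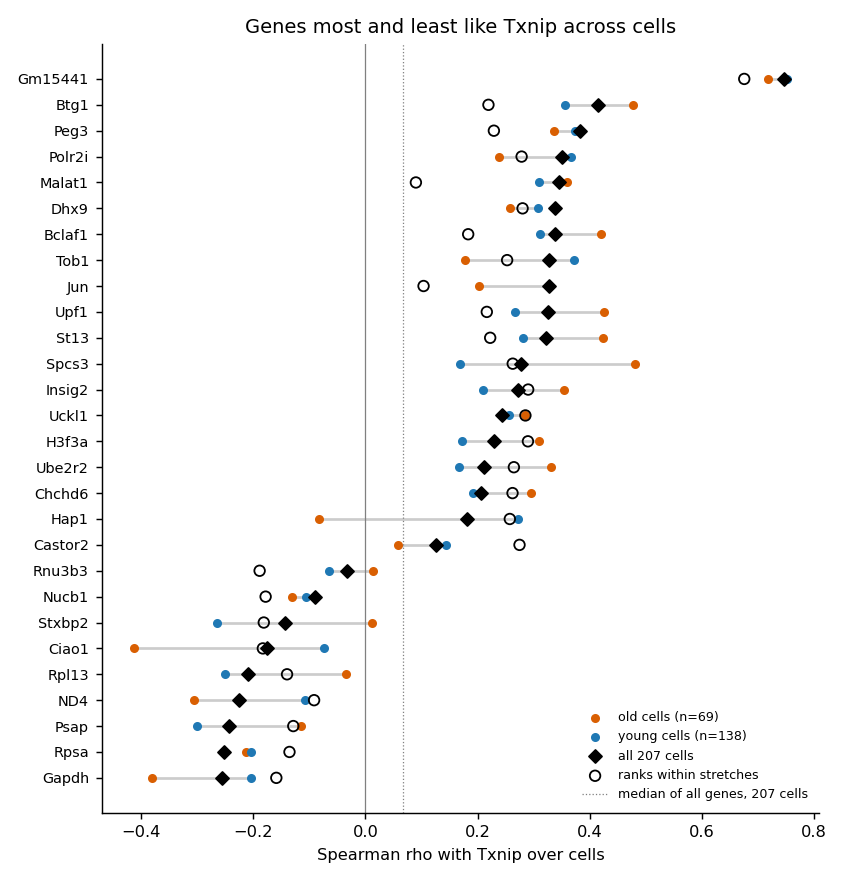
Spearman's rho to Txnip over 207 cells for the named genes, over all cells (diamonds), with ranks within stretches (open circles), and in old and young cells alone (coloured points). Gm15441 stands apart at 0.75, and the other genes lie between -0.26 and 0.41 over all cells.

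The factors known to carry the glucose signal to Txnip were detected in both ages, with little correlation to it from cell to cell. Mlxipl (ChREBP) averaged 32.6 ± 54.0 TPM in old cells and 33.3 ± 52.0 TPM in young cells (SD, n = 69 and 138 cells), a log2 ratio of -0.03, and its rho to Txnip was 0.00. Mlxip (MondoA) averaged 5.96 TPM in old cells and 4.20 TPM in young cells, with opposite log2 ratios in the kinds of stretches (0.99 low, -0.69 high). Without the highest cell of each age its means were 3.56 TPM in old cells and 3.22 TPM in young cells. Their partner Mlx averaged 16.8 TPM in old cells and 29.9 TPM in young cells, a log2 ratio of -0.79. Of 10 measured factors and partners, 2 were lower in old cells by that factor of 1.5 and 2 were higher. The shares among all genes were 26.4% and 16.8%. The median log2 ratio of the factors and partners was 0.05. None of the 7 with a rho reached 0.2, where 6.48% of all genes did.

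Among other genes known to be induced by glucose through these factors the age ratios went both ways. Of 14 listed genes 11 were measured, 3 lower and 1 higher by 1.5-fold, with a median log2 ratio of -0.13. Among all genes 26.4% were lower and 16.8% higher, and the median was -0.10. Arrdc4 averaged 1.81 TPM in old cells and 2.09 TPM in young cells and reached 1 TPM in 7.25% of old cells and 10.9% of young cells, with log2 ratios of 1.17 (low kind) and -1.95 (high kind). The lipogenic enzyme gene Acly averaged 274 TPM in old cells and 299 TPM in young cells. Pfkfb2, which sets fructose 2,6-bisphosphate, had a rho of 0.20 to Txnip, the only one of 4 to reach that size, where 6.48% of all genes did. Within stretches its rho was 0.08, and 0 of the 4 reached 0.2, where 2.01% of all genes did. In the alpha-arrestin family Arrdc1 averaged 0.937 TPM in old cells and 11.2 TPM in young cells, a log2 ratio of -2.66, although a single cell held 61.9% of the old total and another 26.3% of the young total. Without those cells the Arrdc1 means were 0.362 TPM in old cells and 8.34 TPM in young cells. Arrdc3 averaged 4.41 TPM in old cells and 5.73 TPM in young cells, or 1.58 TPM in old cells and 4.60 TPM in young cells without the highest cell of each age, and its log2 ratio was 1.13 (low kind) and -1.54 (high kind). Arrdc5 was listed at 0.

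The thioredoxin system, whose electron carrier Txnip binds, had counts near those of all genes. Of its 19 genes 4 were lower and 3 higher by 1.5-fold in old cells, where 26.4% of all genes were lower and 16.8% higher, and the median log2 ratio was 0.04. The cytosolic thioredoxin Txn1 averaged 64.9 ± 95.4 TPM in old cells and 69.9 ± 104 TPM in young cells (SD, n = 69 and 138 cells), and its rho to Txnip was 0.00. Its reductase Txnrd1 averaged 6.09 TPM in old cells and 13.1 TPM in young cells, lower in old cells in both kinds of stretches. Srxn1, the sulfiredoxin that restores overoxidised peroxiredoxins, averaged 32.1 TPM in old cells and 12.1 TPM in young cells, but its log2 ratio was 3.04 in the low kind against -0.81 for the high kind. Over all cells 1 of 14 genes reached a rho of 0.2, Prdx6 with 0.23, where 6.48% of all genes did. Within stretches 2 of the 14 did, Prdx1 with 0.22 and Prdx6 with 0.21, both peroxiredoxins, where 2.01% of all genes did.

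Among genes for partners of the Txnip protein, the beta cell glucose transporter Slc2a2 averaged 182 TPM in old cells and 160 TPM in young cells, with a rho of 0.24 over all cells and 0.07 within stretches. Its log2 ratio was -0.80 in the low kind and 0.87 when only the high kind was used. Itch, the ubiquitin ligase that degrades Txnip, had a rho of 0.196 (0.135 within stretches, 0.37 in old cells, 0.09 in young cells), just under 0.2. It averaged 7.03 TPM in old cells and 6.13 TPM in young cells. A single cell held 39.2% of the old total, and without the highest cell of each age the order of the Itch means turned, to 4.34 TPM in old cells and 4.92 TPM in young cells. The inflammasome sensor Nlrp3 averaged 0.00 TPM in old cells and 0.01 TPM in young cells, near 0 in both ages. Il1b averaged 6.44 TPM in old cells and 15.1 TPM in young cells, and a single cell accounted for 99.9% of the old sum and another for 90.5% of the young sum. Of 17 measured genes of glucose entry and glycolysis 1 was lower and 8 higher by 1.5-fold in old cells. The shares among all genes were 26.4% lower and 16.8% higher. Within kinds the counts were 4 lower and 4 higher (low kind) and 3 lower and 2 higher (high kind). The shares among all genes were not computed within kinds, so no excess can be judged there. The list's median log2 ratio was 0.54, against 0.41 in the low kind alone and -0.04 in the high kind alone.

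Txnip is also known to be induced by glucocorticoids, and genes of that list were often at lower levels in old cells. Of 13 measured genes 9 were lower and 0 higher by 1.5-fold, where 26.4% of all genes were lower and 16.8% higher. The list's median log2 ratio was -0.76, against -0.10 over all genes, and the medians within kinds were -0.78 (low) and -0.77 (high). Tsc22d3 (GILZ), a classical target, averaged 4.71 TPM in old cells and 9.66 TPM in young cells. Klf9, a glucocorticoid-induced factor, averaged 12.7 TPM in old cells and 22.7 TPM in young cells. The list's median rho to Txnip was 0.11, and 1 of 10 genes reached 0.2, where 6.48% of all genes did.

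The immediate early list, which also responds to cell dissociation, had 16 of 21 genes lower and 0 higher by 1.5-fold in old cells. For this list and those below, the shares among all genes were 26.4% lower and 16.8% higher over all cells. Such shares were not computed within kinds, so the counts within kinds have no share of all genes to stand beside. The immediate early list had a median log2 ratio of -1.13, against -0.10 over all genes. The low kind had a median of -0.15, and the high kind, which contains young cells 55-86, one of -2.13. Of 14 such genes 7 had a rho to Txnip of 0.2 or above over all cells and 0 within stretches. The shares among all genes were 6.48% and 2.01%. The antioxidant and metal list had 7 of 17 genes lower and 0 higher in old cells, with a median log2 ratio of -0.43. In the low kind 8 of them were lower and 1 higher (median -0.55), and in the high kind 4 and 3 (median -0.15). The unfolded protein list had 3 of 18 lower and 1 higher over all cells. In the high kind 11 were lower and 0 higher (median -0.89), against 2 and 3 in the low kind (median -0.02). The apoptosis list had 2 of 9 lower and 1 higher over all cells. Its high kind had 6 lower and 3 higher (median -0.95), and its low kind 2 and 1 (median 0.02). Medians over all genes were -0.09 (low kind) and -0.14 (high kind).

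**Figure D5:**
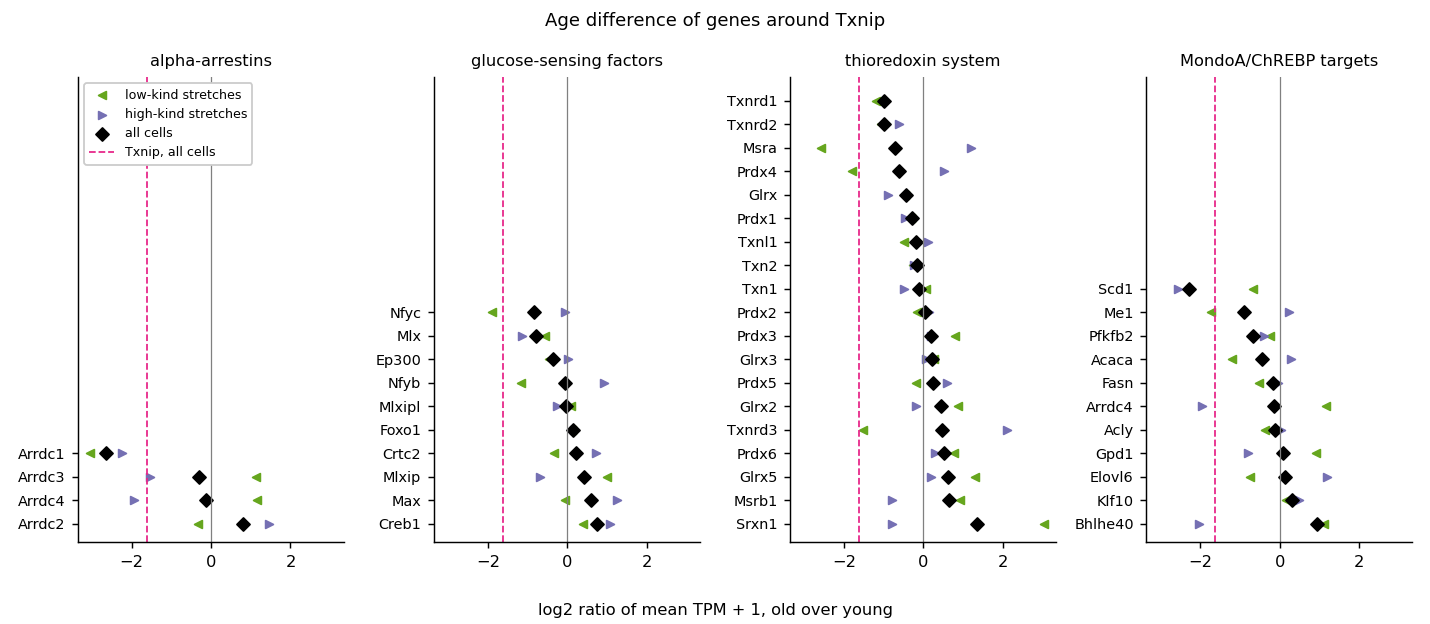
Log2 ratio of mean TPM, old over young, for genes of 4 lists around Txnip, over all cells (diamonds) and in the low and high kinds of stretches (triangles), with a dashed line for Txnip. Txnip lies at -1.62 over all cells, and Mlxipl and Txn1 lie near 0.

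The labelled cell type matched its main markers, with Ins1, Ins2 and Iapp at 1 TPM or above in all cells of both ages, although Mafa averaged only 0.40 TPM in old cells, all of it in 1 cell, and 0.02 TPM in young cells. Marker genes of other cell types were present unevenly. Alpha cell markers summed to a median of 927 TPM in old cells and 949 TPM in young cells. Their summed rho to Txnip was 0.18, and 0.08 within stretches, and single members ranged from -0.12 (Gc) to 0.21 (Ttr). Delta cell and PP cell sums had a rho to Txnip of -0.07 and 0.10. The summed macrophage markers had a median of 0.371 TPM in old cells and 0.507 TPM in young cells, with a highest value of 8787 TPM in old cells and 30717 TPM in young cells, and their rho to Txnip was -0.01. The summed endothelial markers had a median of 0.062 TPM in old cells and 0 in young cells, with highest values of 738 TPM in old cells and 32.7 TPM in young cells. Their mean was 13.4 TPM in old cells and 0.640 TPM in young cells, or 2.76 TPM in old cells and 0.406 TPM in young cells without the highest cell of each age, and their rho to Txnip was -0.12. The summed duct markers averaged 114 TPM in old cells and 86.1 TPM in young cells, with a rho to Txnip of -0.15. Their highest values were 939 TPM in old cells and 830 TPM in young cells, with medians of 54.5 and 35.9 TPM. Of the 4 duct genes only 1, Krt7, averaged 1 TPM or above in either age, and Cftr was listed at 0 throughout. The duct sum is thus nearly all Krt7, whose own rho was -0.15, and does not show RNA of duct cells. The summed acinar markers had a median of 0 in both ages and a highest value of 81.6 TPM in old cells and 3.29 TPM in young cells. The part of other cells' RNA in the level of Txnip was not tested. Another hormone gene (Gcg, Sst, Ppy or Pyy) reached 1000 TPM in 7 old cells, where Txnip averaged 5.69 TPM, against 22.2 TPM in the other old cells, and in 0 young cells.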

How the data were processed

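Islet cells of old and young male mice were captured on the C1 circuit, with SMARTer cDNA and Nextera XT libraries, per the labels' protocols. The authors deposited 1 table of TPM per gene and cell. Per the submitters' processing notes, CASAVA 1.8.2, FastQC and build GRCm38 (mm10) were used. Which aligner, counter or annotation was used is not given in the sources used here. TPM holds no read depth, so depth per cell is unknown and no count test was run. Gene numbers were matched to RefSeq symbols for 39725 of 44448 rows, and 4723 rows were not matched.

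Cells were grouped by the labelled age, none was excluded and no doublet caller was run. Each age is 1 sample, so no test was made; ratios are of mean TPM with a pseudocount of 1, and a fold of 1.5 or a rho of 0.2 is only a size. Shares have exact intervals that cover counting error only. Txnip, the gene lists, the stretches and the rules were chosen with earlier results of these data known. Genes were named as the 10 highest and 5 lowest rho over all cells and within stretches among symbol-named genes at 1 TPM in at least 25% of cells, the nearest coding neighbours, and members of the lists. Calculations used Python 3.11.15, numpy 2.4.6, pandas 2.3.3, scipy 1.17.1 and matplotlib 3.10.9, and were tested on simulated data. Alternatives covered pseudocount, detection level, scaling, filters on genes, ranges of detected genes and leaving out stretches or single cells, the last in part chosen after seeing the data.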

Additional observations from a re-analysis of the deposited data

How the results depend on the processing

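The age ratio of Txnip turned direction under 1 alternative, chosen after seeing the data: in cells with 4500 detected genes or more, without young cells 55-86, it was 0.047. It stayed below 0 under the other alternatives run. The log2 ratio of -1.62 was -0.99 without old cells 159-190, -0.88 without young cells 55-86 and -0.98 in the low kind. Among other alternatives chosen after seeing the data it was -0.80 in all cells with 4500 genes or more and -0.72 in the high kind without cells 55-86. Pseudocounts of 10 and 0 gave -1.30 and -1.66, and the mean of log2 values gave -1.10. The share of old cells was 75.4% at any level above 0, 30.4% at 10 TPM, 5.80% at 100 TPM, 67.6% without cells 159-190, 32.5% (low kind) and 79.3% (high kind). The share of young cells was 80.4% at any level above 0, 42.0% at 10 TPM, 18.1% at 100 TPM and 53.7% in the low kind. The count of genes with rho of 0.2 or above was 596 with any detected gene admitted and 120 within stretches, against 387; that of -0.2 or below was 23 with a 10% filter, 48 with any detected gene and 0 within stretches, against 14. The causes of these changes were not tested. Of 28 genes followed, 11 moved by over 0.1 in rho within stretches, 13 in old cells alone and 4 in young cells alone. No paired analysis was possible because the labels number cells, not pairs. Unknown read depth limits every share and every value at 0.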
